A study of Mus musculus with 8 samples.

Results

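Glucose uptake, glycolysis and glycogen metabolism were followed through 41 genes in the left ventricle of mice, and 40 of the 41 reached a value of at least 1 in 2 or more libraries. The members were taken by gene symbol from a table of 49671 genes, of which 16432 passed the same filter. Only the brain aldolase gene Aldoc did not pass, with values between 0 and 1.2. Polyadenylated RNA came from male C57BL/6N mice, in 4 groups with 2 libraries each, and the mice were 8 weeks old when the study began. The first group had transverse aortic constriction (TAC), surgery that tightens the aorta so that the left ventricle pumps against high pressure. It ate the SFA diet, and its control was sham SFA. The other pair, TAC SFA-EAA and sham SFA-EAA, ate a diet in which free essential amino acids took the place of 93.5% of the casein. All hearts were sampled 4 weeks after the operation. The mice carried no labelled transgene or gene deletion.

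Glucose enters heart muscle cells through transporters of the SLC2A family, is trapped by hexokinase and is committed to glycolysis by phosphofructokinase. The PFKFB enzymes make and break fructose bisphosphate of the regulatory kind, the strongest known activator of phosphofructokinase, and glycogen is the glucose store. The adult heart burns mostly fatty acids, and a larger share of glucose use is a textbook feature of the overloaded heart. Many steps have several paralogs, of which the muscle forms dominate in adult myocardium.

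Values are the authors' normalised values per gene, which are not whole counts, and summed to between 5136441 and 6298743 per library. Between 14202 and 15844 genes reached 1. The 10 cardiomyocyte markers of a chosen list were all present in every group, while the skeletal myosin genes Myh1, Myh2 and Myh4 and the atrial gene Bmp10 were listed at 0 in all groups. The 7 atrial markers summed to 10599.6 to 21999.7 in TAC SFA and 1517.5 to 3281.1 in sham SFA. In TAC SFA-EAA they summed to 3709.7 to 4783.7, and in sham SFA-EAA to 1465.0 to 1635.2. Singly the atrial markers did not move together. For TAC against sham, 2 of the 6 tested had positive and 4 negative log2 fold changes under each diet. The medians were -0.3 under SFA and -0.4 under SFA-EAA. Under SFA 1 was called higher and 1 lower, and under SFA-EAA none was called. For SFA-EAA against SFA averaged over operations, 5 of the 6 tested had negative log2 fold changes (median -2.64), with 1 called higher and 1 lower. The part of atrial tissue in the results was not tested. Libraries differed in base composition. Across 10203 genes, deviations from a gene's mean fell with GC content in both sham SFA-EAA libraries (Spearman rho -0.621 and -0.428) and in TAC SFA-EAA replicate 2 (rho -0.729). In the other 5 libraries, TAC SFA-EAA replicate 1 included, rho lay between 0.344 and 0.516. Results are therefore also given from values with each library's GC trend removed, called GC-corrected here. Whether replicate libraries are from different animals is not stated in the labels, and p-values here cover only the spread between samples.

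Levels of different genes were compared per kilobase of gene model, as means over the 8 libraries. These levels, and the shares of paralogs given later, depend on the gene-model lengths in the table, such as 9395 bases for Pfkp and 2957 for Pfkm. The most abundant members were muscle and heart forms. Ldhb, the heart subunit of lactate dehydrogenase, led with 5316.5 per kilobase, ahead of the muscle enolase Eno3 with 4028.2. Aldoa, the muscle aldolase, reached 3404.3, the muscle phosphoglycerate mutase Pgam2 3100.9, Gapdh 2825.6 and the muscle phosphofructokinase Pfkm 1823.4. At the low end stood the lactate exporter Slc16a3 (1.16), the neuronal transporter Slc2a3 (1.07), the neuronal enolase Eno2 (0.686) and Aldoc (0.114).

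**Figure D1:**
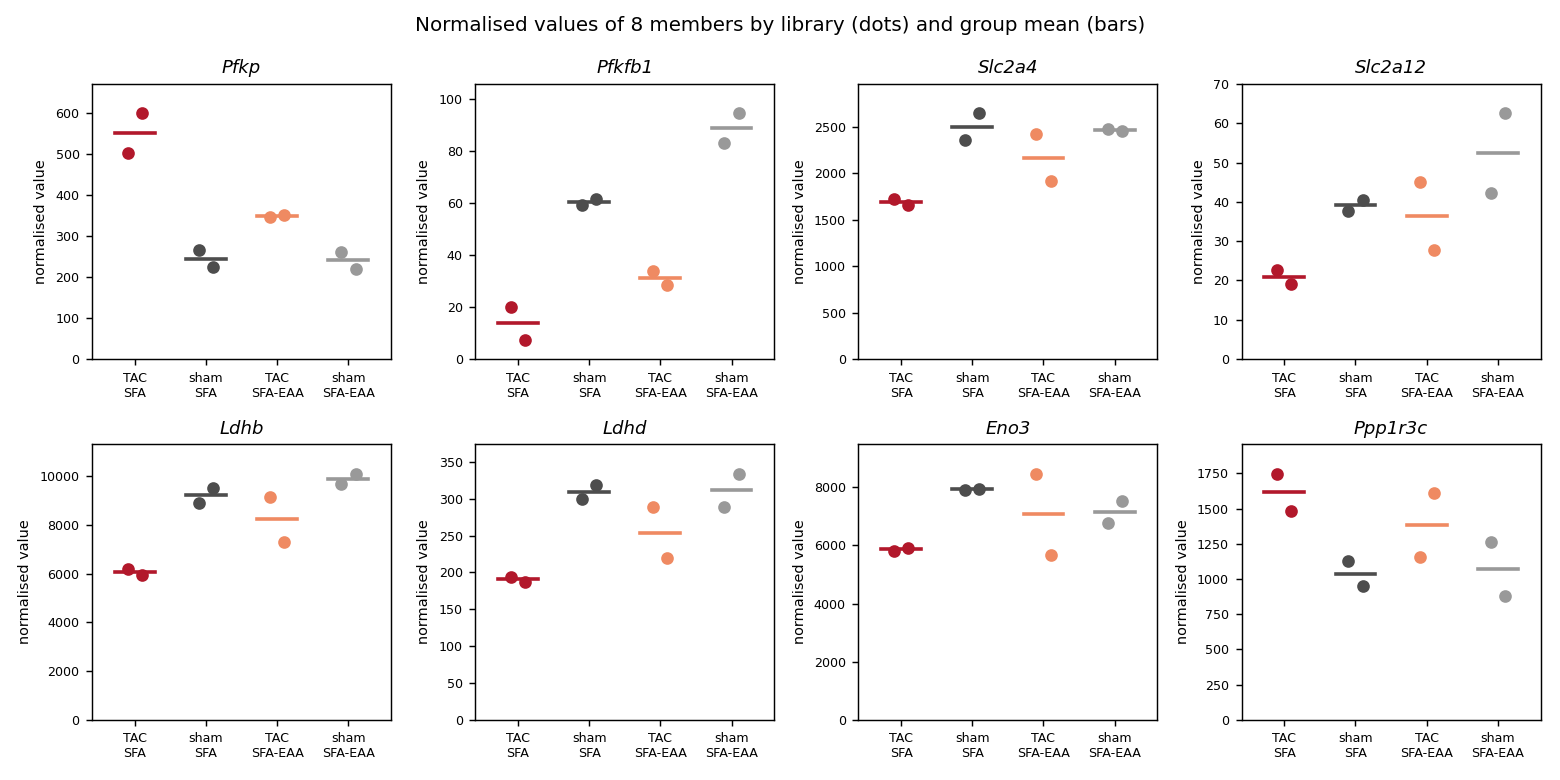
Normalised value (vertical axes, from 0) of 8 members in each library (dots) of the 4 groups, with bars at the mean of 2 libraries. Pfkp lay at 502.8 and 600.5 in TAC SFA, above the other 6 libraries, and Pfkfb1 lay lower in all 4 TAC libraries than in any sham library.

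TAC against sham under SFA addresses the effect of pressure overload on that diet. Pfkp, the platelet-type phosphofructokinase, rose and Pfkfb1, the liver and muscle form of the PFKFB enzymes, fell. By limma with Benjamini-Hochberg adjustment over all genes, 2 of 40 members were called, beside 1.25% of all 16432 genes. That is 1 member higher, beside 0.834% of all genes, and 1 lower, beside 0.414%. The median log2 fold change of the members was 0.13, and 23 were positive and 17 negative, beside a median of 0.01 over all genes. With GC-corrected values 7 members were called, beside 4.84% of all genes. Pfkp and the glycogen-targeting subunit gene Ppp1r3c then rose, while Slc2a4, Pfkfb1, Ldhb, Ldhd and Eno3 fell.

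Of the 3 phosphofructokinase genes, Pfkp was called and Pfkm and Pfkl were not. Pfkp (ENSMUSG00000021196, chromosome 13, 6579768 to 6648777, minus strand, GRCm38) stood at 502.8 and 600.5 in TAC SFA libraries, against 265.7 and 224.5 in sham SFA libraries. Under SFA-EAA it stood at 347.9 and 351.4 in TAC, against 262.2 and 219.7 in sham. All 4 TAC libraries lay above all 4 sham libraries. Pfkp averaged 551.6 ± 69.1 in TAC SFA and 245.1 ± 29.2 in sham SFA (SD, n = 2 libraries each), a 2.24-fold rise (log2 fold change 1.17, SE 0.15, limma adjusted p = 0.0101). The call was lost without TAC SFA replicate 1 or 2 (limma adjusted p = 0.0567 and 0.17) and without sham SFA replicate 1 or 2 (limma adjusted p = 0.0738 and 0.179), with log2 fold changes of 1.04 to 1.29. Under SFA-EAA the TAC value was 1.46-fold the sham value without passing (log2 fold change 0.54, limma adjusted p = 0.402). Averaged over diets Pfkp rose 1.81-fold (log2 fold change 0.85, SE 0.11, limma adjusted p = 0.00638). That call was lost without TAC SFA replicate 2, sham SFA replicate 2 or sham SFA-EAA replicate 2 (limma adjusted p = 0.0681, 0.0657 and 0.0648).

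Fibroblast and macrophage markers were higher after TAC under SFA, as Pfkp was. The summed level of 10 fibroblast markers was 11130.9 to 16466.6 in TAC SFA, against 5678.9 to 6683.6 in sham SFA. All 10 had positive log2 fold changes, of which 3 passed. Under SFA-EAA the fibroblast sum was 5901.4 to 7256.3 in TAC, against 4963.3 to 5754.5 in sham. Of the 10 markers, 7 had positive and 3 negative log2 fold changes there, with a median of 0.13. None of the 10 passed in limma (3 at an unadjusted p under 0.05). No fibroblast marker was listed at 0, and the part of fibroblasts in the Pfkp result was not tested. In bulk tissue a change in the number of cells of a type and a change in RNA per cell cannot be told apart. Macrophage markers summed to 1816.7 to 2103.8 in TAC SFA, against 1185.9 to 1612.0 in sham SFA, and to 1639.9 to 2208.1 in TAC SFA-EAA, against 1162.6 to 1266.5 in sham SFA-EAA. All 10 macrophage markers had positive log2 fold changes under both diets, with medians of 0.57 under SFA and 0.72 under SFA-EAA. None was called by limma under either diet (6 and 7 at an unadjusted p under 0.05). Averaged over diets 2 were called higher. Smooth muscle and pericyte markers summed to 18645.6 to 22027.5 in TAC SFA, against 14735.0 to 15768.0 in sham SFA, and to 13670.0 to 17407.3 in TAC SFA-EAA, on both sides of 14732.4 to 15034.7 in sham SFA-EAA. Singly these 10 markers did not move together. Under SFA 6 had positive and 4 negative log2 fold changes, and the 1 called was lower. Under SFA-EAA 1 was positive and 9 were negative, and 0 were called. None of these markers was listed at 0 in any group, and their part in the Pfkp result was not tested either. Pfkp shares exon bases with Pitrm1 on the opposite strand, which lay between 273.2 and 370.7 in all libraries, and the use of strand in counting is not given in the sources used here.

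Pfkm, the muscle form, had 4491.4 and 5479.3 in TAC SFA, against 6075.6 and 6231.8 in sham SFA, so the groups did not overlap (log2 fold change -0.31, limma adjusted p = 0.481). With 2 libraries per group, a lack of overlap says little here and below. Tpi1 and Ldha did not overlap under SFA either, at log2 fold changes of -0.06 and -0.1. The share of all genes without overlap was not computed. Under SFA-EAA Pfkm had 5955.1 and 4388.8 in TAC, on both sides of 5017.7 and 5493.7 in sham. Pfkl, the liver form, had 659.3 and 810.3 in TAC SFA, against 691.6 and 611.6 in sham SFA, with overlap (log2 fold change 0.17, limma adjusted p = 0.859). Under SFA-EAA Pfkl had 590.9 and 305.1 in TAC, on both sides of 402.1 and 468.7 in sham. As a share of the length-scaled values of the 3 genes, Pfkp made up 3.07% ± 0.0461 in TAC SFA and 1.16% ± 0.149 in sham SFA (SD, n = 2 each). It made up 2.02% ± 0.464 in TAC SFA-EAA and 1.36% ± 0.255 in sham SFA-EAA. Pfkm remained the main form in every library, between 88.2% and 93.5%. Its mean share was 88.2% in TAC SFA and 92.3% in sham SFA.

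**Figure D2:**
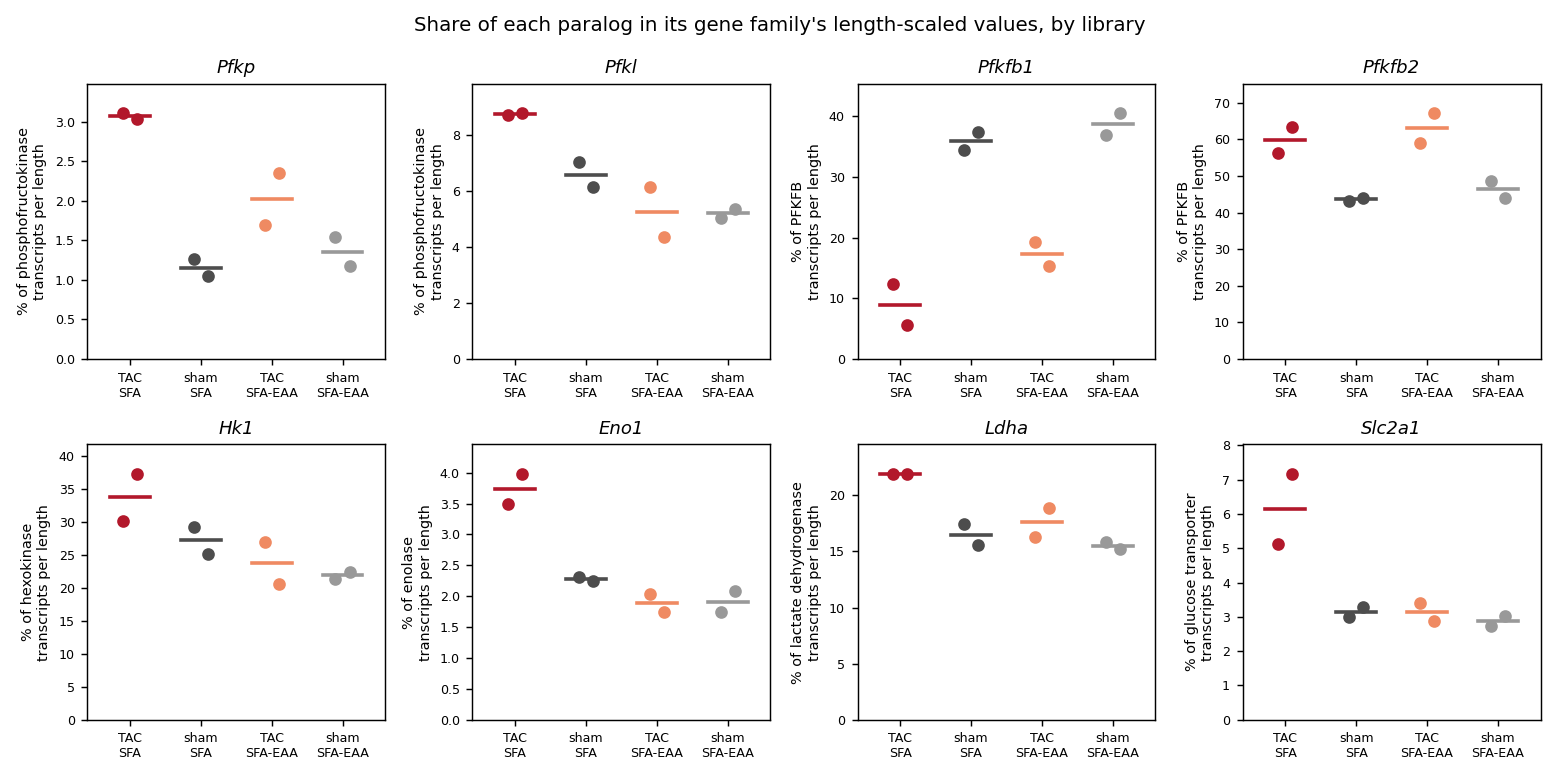
Share of 8 paralogs in the length-scaled values of their gene family, in percent (vertical axes, from 0), in each library (dots) with bars at the mean of 2 libraries per group. Pfkfb1 averaged 9.0% in TAC SFA and 35.9% in sham SFA, and Eno1 averaged 3.73% in TAC SFA and 2.28% in sham SFA.

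The promoter windows of Pfkp, Ldhb and Ldhd are shown as examples. Their TAC SFA libraries lay above the sham SFA libraries for Pfkp and below them for Ldhb and Ldhd. Other members, such as Eno3 and Ppp1r3c, had no overlap there either. Ldhb and Ldhd were not called as deposited with all libraries, and the window of the called Pfkfb1 is not shown. Each line gives the 250 bases before the RefSeq start (GRCm38.p6), 5′ to 3′ on the gene's own minus strand. The windows are chr13:6648772-6649021, chr6:142507958-142508207 and chr8:111630337-111630586. Capitals mark the GC box GGGCGG, the CCAAT box, TATAAA, the hypoxia response cores ACGTG and GCGTG, and the estrogen-related receptor element TNAAGGTCA, on either strand.
Pfkp: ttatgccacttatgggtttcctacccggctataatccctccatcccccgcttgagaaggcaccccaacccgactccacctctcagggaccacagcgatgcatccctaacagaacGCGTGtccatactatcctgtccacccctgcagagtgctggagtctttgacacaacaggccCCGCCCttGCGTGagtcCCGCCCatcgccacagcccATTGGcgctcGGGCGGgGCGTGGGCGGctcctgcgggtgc
Ldhb: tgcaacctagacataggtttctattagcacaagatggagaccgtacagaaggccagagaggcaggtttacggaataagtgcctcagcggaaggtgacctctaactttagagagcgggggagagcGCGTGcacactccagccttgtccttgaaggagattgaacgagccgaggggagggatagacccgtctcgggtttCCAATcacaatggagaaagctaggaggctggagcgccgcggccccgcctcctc
Ldhd: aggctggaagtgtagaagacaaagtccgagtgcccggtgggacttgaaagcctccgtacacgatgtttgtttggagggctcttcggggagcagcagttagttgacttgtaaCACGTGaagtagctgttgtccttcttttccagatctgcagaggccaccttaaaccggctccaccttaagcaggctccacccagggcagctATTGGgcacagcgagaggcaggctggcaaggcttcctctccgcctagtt
Pfkp held 4 GGGCGG, 1 CCAAT and 3 GCGTG matches, of which some overlap. Ldhb held 1 CCAAT and 1 GCGTG. Ldhd held 1 CCAAT and 2 ACGTG matches, which are the overlapping strands of a CACGTG palindrome. None of the 3 windows held TATAAA or TNAAGGTCA. Among 32851 windows of the same length, GGGCGG occurred in 32.7%, CCAAT in 33.8%, TATAAA in 12.4%, ACGTG in 16.6%, GCGTG in 28.2%, CACGTG in 6.0% and TNAAGGTCA in 1.1%. A match describes the letters only. Windows were found for 39 of 41 members, not for Slc2a3 or Slc2a4.

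Among the PFKFB genes, which set the level of the activator of phosphofructokinase, Pfkfb1 was the called member. Pfkfb1 (ENSMUSG00000025271, chromosome X, 150588229 to 150643878) stood at 20.1 and 7.32 in TAC SFA, against 59.4 and 61.5 in sham SFA. In SFA-EAA hearts it stood at 33.8 and 28.5 after TAC, against 83.0 and 94.6 after sham. Every TAC library lay below every sham library, and the TAC SFA replicates themselves were far apart. Pfkfb1 fell to 0.216 of the sham SFA value (log2 fold change -2.21, SE 0.39, limma adjusted p = 0.0356). The call held without TAC SFA replicate 1 (limma adjusted p = 0.0279) and was lost without each of the other 7 libraries (limma adjusted p = 0.0588 to 0.356), with log2 fold changes of -1.54 to -2.88. Under SFA-EAA its log2 fold change of -1.49 did not pass (limma adjusted p = 0.382). Averaged over diets Pfkfb1 fell (log2 fold change -1.85, SE 0.28, limma adjusted p = 0.0141). Without either sham SFA library, either sham SFA-EAA library or TAC SFA-EAA replicate 2 that value did not pass (limma adjusted p = 0.0832, 0.109, 0.0984, 0.125 and 0.0553). The annotation gives Pfkfb1 4 starts, which gene-level values do not separate, and it shares exon bases with Apex2 on the opposite strand, at 18.6 to 37.5.

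Under SFA most cardiomyocyte markers were lower after TAC, as were Pfkfb1 and the genes Slc2a4, Eno3, Ldhb and Ldhd, which are described next. The summed level of 10 markers was 375798.8 to 400934.8 in TAC SFA, against 444163.3 to 447123.2 in sham SFA. Of the 10, 7 had negative log2 fold changes, with a median of -0.19, and none passed in limma (2 at an unadjusted p under 0.05). Under SFA-EAA the sum was 360885.5 to 444392.8 in TAC, on both sides of 391281.5 to 411026.3 in sham. There 5 of the 10 markers had positive and 5 negative log2 fold changes, with a median of -0.02, and none was called. The part of cardiomyocyte content in the lower values was not tested.

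Pfkfb2, the heart form, had 164.2 and 150.8 in TAC SFA, against 134.2 and 131.1 in sham SFA, and 187.8 and 226.2 in TAC SFA-EAA, against 198.0 and 186.2 in sham SFA-EAA. The SFA groups did not overlap and the SFA-EAA groups did. Its share of the length-scaled PFKFB values was 59.9% in TAC SFA and 43.7% in sham SFA, and 63.1% in TAC SFA-EAA and 46.4% in sham SFA-EAA. Pfkfb3 and Pfkfb4 ranged from 34.7 to 54.6 and from 11.2 to 30.5 over all libraries, and neither passed in any comparison.

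Slc2a4, the insulin-regulated transporter GLUT4 and the main glucose transporter of the heart, had 1718.2 and 1657.5 in TAC SFA, against 2356.2 and 2646.3 in sham SFA. Under SFA-EAA it had 2419.4 and 1915.8 in TAC, against 2477.9 and 2448.9 in sham. Groups did not overlap under either diet, but TAC SFA-EAA replicate 1 lay close to the sham libraries. The log2 fold change under SFA of -0.56 did not pass as deposited (limma adjusted p = 0.0868) and passed with GC-corrected values (-0.55, limma adjusted p = 0.00713). It also passed without TAC SFA-EAA replicate 1 or 2 (limma adjusted p = 0.0298 and 0.0301), libraries that enter this comparison through the shared spread alone. Under SFA-EAA it was -0.19 (limma adjusted p = 0.755). Averaged over diets it was -0.38 (limma adjusted p = 0.0854; GC-corrected limma adjusted p = 0.00544; without TAC SFA-EAA replicate 1, limma adjusted p = 0.0239).

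The ubiquitous transporter Slc2a1, GLUT1, had 94.8 and 130.6 in TAC SFA, against 74.6 and 91.8 in sham SFA, without overlap (log2 fold change 0.42, limma adjusted p = 0.529). In TAC SFA-EAA it had 87.1 and 58.2, on both sides of the 71.1 and 78.4 in sham SFA-EAA. Its share of length-scaled glucose transporter values averaged 6.14% in TAC SFA and 3.14% in sham SFA. Slc2a12, GLUT12, had 22.7 and 19.2 in TAC SFA, against 37.8 and 40.4 in sham SFA (log2 fold change -0.87, limma adjusted p = 0.26). Under SFA-EAA it had 45.0 and 27.8 in TAC, against 42.3 and 62.6 in sham, with overlap (log2 fold change -0.53, limma adjusted p = 0.703). Slc2a12 shares exon bases with Tbpl1 on the opposite strand, at 55.5 to 72.2. Slc16a1, the lactate and pyruvate carrier MCT1, had 1250.4 and 1320.6 in TAC SFA, against 1438.6 and 1305.2 in sham SFA, and 1377.0 and 1836.8 in TAC SFA-EAA, against 1384.9 and 1448.0 in sham SFA-EAA, with overlap under both diets. Slc16a3, MCT4, had 9.46 and 13.6 in TAC SFA, against 4.23 and 4.56 in sham SFA (log2 fold change 1.20, limma adjusted p = 0.386). No transporter passed as deposited with all 8 libraries.

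Hexokinases trap glucose in the cell. Hk1, the ubiquitous form, had 846.1 and 1357.3 in TAC SFA, against 929.3 and 788.6 in sham SFA, with overlap and a wide spread after TAC. Under SFA-EAA Hk1 had 833.1 and 522.2 in TAC, against 535.7 and 627.1 in sham, again with overlap. Hk2, the muscle form, had 1370.9 and 1596.5 in TAC SFA, against 1569.2 and 1648.3 in sham SFA, and 1586.2 and 1406.5 in TAC SFA-EAA, against 1380.5 and 1519.7 in sham SFA-EAA, with overlap under both diets. The aldolase gene Aldoa ranged from 9379.2 to 14881.3, and the isomerase gene Tpi1 from 4033.2 to 4748.8. With all 8 libraries none of these 4 genes passed in any comparison.

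In lower glycolysis, Gapdh had 13208.9 and 13647.9 in TAC SFA, against 12439.3 and 12320.4 in sham SFA, and 12627.7 and 9647.0 in TAC SFA-EAA, against 9089.5 and 10443.4 in sham SFA-EAA. The SFA groups did not overlap, but the difference was small beside the shared spread. Eno3, the muscle enolase, had 5822.7 and 5926.2 in TAC SFA, against 7907.4 and 7940.7 in sham SFA (log2 fold change -0.43, limma adjusted p = 0.336; GC-corrected -0.42, limma adjusted p = 0.0431). Its SFA-EAA values of 8458.7 and 5670.5 in TAC spanned the 6776.3 and 7538.2 in sham. Pgam1, the ubiquitous mutase, had 151.8 and 160.7 in TAC SFA, against 122.3 and 85.0 in sham SFA, without overlap (log2 fold change 0.61, limma adjusted p = 0.223). Eno1, the ubiquitous enolase, made up 3.73% ± 0.351 of length-scaled enolase values in TAC SFA and 2.28% ± 0.0408 in sham SFA. Pkm, which encodes pyruvate kinase and whose splice forms the gene values do not separate, had 4938.4 and 5703.7 in TAC SFA, against 6021.4 and 5821.7 in sham SFA, and 5213.3 and 3530.5 in TAC SFA-EAA, against 4504.0 and 5310.6 in sham SFA-EAA.

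The lactate dehydrogenase genes Ldhb and Ldhd had lower values after TAC under SFA, and neither passed as deposited with all 8 libraries. Ldhb (ENSMUSG00000030246, chromosome 6, 142490249 to 142507957) had 6169.0 and 5953.3 in TAC SFA, against 8915.5 and 9502.8 in sham SFA. Under SFA-EAA it had 9156.5 and 7305.8 in TAC, against 9682.9 and 10089.6 in sham. TAC and sham did not overlap under either diet, and TAC SFA-EAA replicate 2 lay nearer to the TAC SFA libraries than replicate 1 did. The log2 fold change under SFA was -0.60 (SE 0.14, limma adjusted p = 0.0825; GC-corrected limma adjusted p = 0.00581; 0.0266 and 0.0276 in limma without TAC SFA-EAA replicate 1 or 2; 0.0478 with a filter of at least 5 in 2 libraries). Under SFA-EAA it was -0.27 (limma adjusted p = 0.632). Averaged over diets it was -0.44 (limma adjusted p = 0.0622; GC-corrected limma adjusted p = 0.00328; 0.0206 and 0.0486 in limma without TAC SFA-EAA replicate 1 or 2). It also passed with the filter at 5 and with quantile scaling (limma adjusted p = 0.0353 and 0.0343). Ldhd, the mitochondrial enzyme for D-lactate (ENSMUSG00000031958, chromosome 8, 111623785 to 111630374), had 194.4 and 187.3 in TAC SFA, against 300.2 and 318.4 in sham SFA. In SFA-EAA hearts it had 288.2 and 220.0 after TAC, against 288.9 and 333.8 after sham. The 4 TAC libraries all lay below the 4 sham libraries, the highest TAC value being just under the lowest sham value. Its log2 fold change was -0.69 under SFA (limma adjusted p = 0.0778; GC-corrected limma adjusted p = 0.00595; 0.0318 and 0.0325 in limma without TAC SFA-EAA replicate 1 or 2). Averaged over diets it was -0.50 (limma adjusted p = 0.0607; GC-corrected limma adjusted p = 0.0035; without TAC SFA-EAA replicate 1, limma adjusted p = 0.0245), and it passed with the filter at 5 and with median-of-ratios scaling (limma adjusted p = 0.0455 and 0.0492). Ldhd shares exon bases with Znrf1 on the opposite strand, at 164.2 to 288.2. Ldha, the muscle subunit, had 3640.5 and 3518.0 in TAC SFA, against 3949.0 and 3711.1 in sham SFA, and 3759.5 and 3591.0 in TAC SFA-EAA, against 3823.8 and 3827.3 in sham SFA-EAA. Its share of length-scaled Ldha and Ldhb values was 21.9% in TAC SFA and 16.5% in sham SFA.

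Of the 8 glycogen genes none passed as deposited with all 8 libraries. Ppp1r3c, a subunit that brings protein phosphatase to glycogen, had 1745.9 and 1485.5 in TAC SFA, against 1124.4 and 949.1 in sham SFA. Under SFA-EAA it had 1156.5 and 1612.3 in TAC, against 1264.9 and 881.2 in sham. The SFA groups did not overlap and the SFA-EAA groups did. Its log2 fold change under SFA was 0.64 (limma adjusted p = 0.209; GC-corrected limma adjusted p = 0.0434). The synthase gene Gys1 had 611.9 and 627.5 in TAC SFA, against 669.4 and 616.3 in sham SFA, and 600.2 and 416.3 in TAC SFA-EAA, against 482.5 and 548.3 in sham SFA-EAA, with overlap under both diets. Pygm, the muscle phosphorylase, had 3185.9 and 3856.6 in TAC SFA, against 4099.5 and 3990.9 in sham SFA, and 3631.1 and 2736.3 in TAC SFA-EAA, against 3095.6 and 3588.6 in sham SFA-EAA. Pygb, the brain form, had 4174.6 and 5142.1 in TAC SFA, against 4193.1 and 4406.5 in sham SFA, and 4239.7 and 4280.3 in TAC SFA-EAA, against 3746.4 and 3968.7 in sham SFA-EAA. Pygm groups did not overlap under SFA and Pygb groups did not overlap under SFA-EAA. The phosphorylase genes kept their order in every library but TAC SFA-EAA replicate 2, with Pygm ahead of Pygb per length. Pygm made up 52.9% ± 0.273 in TAC SFA and 58.2% ± 1.32 in sham SFA, and 52.3% ± 5.12 in TAC SFA-EAA and 56.2% ± 1.57 in sham SFA-EAA.

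Txnip, which restrains glucose uptake and is induced by glucose, had 1647.1 and 2010.8 in TAC SFA, against 1519.8 and 1535.2 in sham SFA, and 1327.8 and 1802.3 in TAC SFA-EAA, against 1506.4 and 1893.0 in sham SFA-EAA. The SFA groups did not overlap and the SFA-EAA groups did. G6pdx, which opens the pentose phosphate pathway, had 35.0 and 44.8 in TAC SFA, against 39.7 and 28.3 in sham SFA, and 30.8 and 25.5 in TAC SFA-EAA, against 33.9 and 34.1 in sham SFA-EAA. It shares exon bases with Ikbkg on the opposite strand, which is higher, at 210.4 to 309.9. Pgd, the next dehydrogenase, ranged from 96.8 to 173.6. With all 8 libraries none of the 3 genes passed in any comparison.

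**Figure D3:**
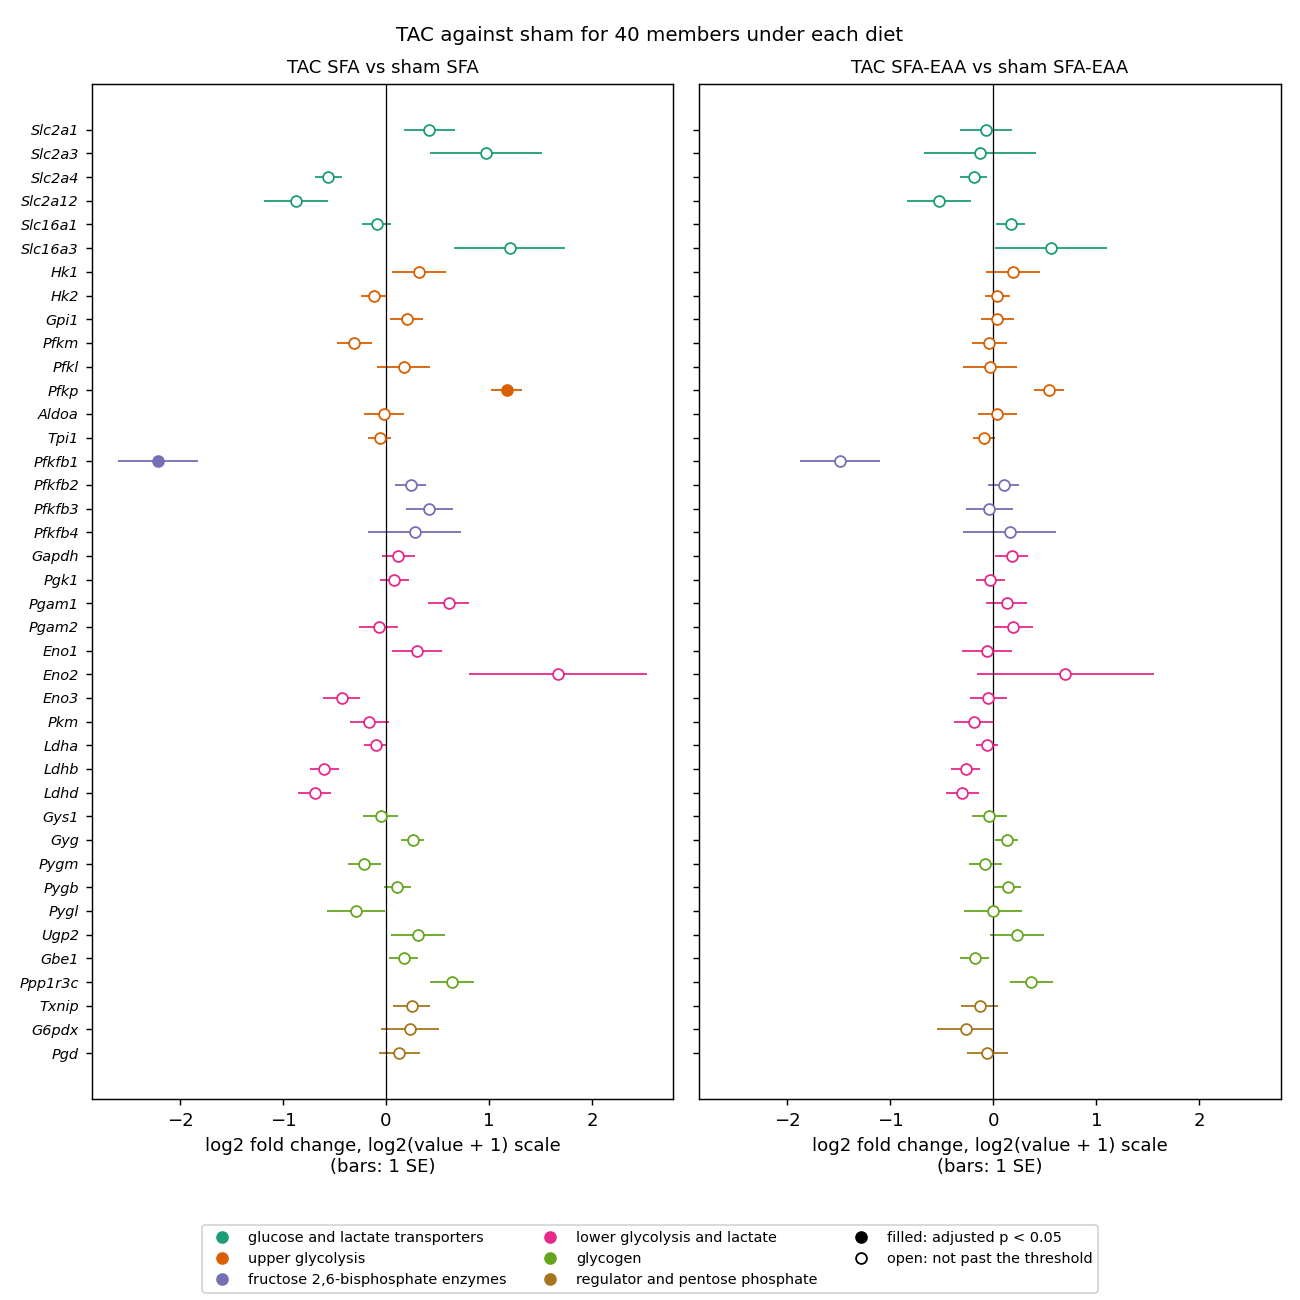
Log2 fold change on the log2(value + 1) scale (horizontal axes, bars 1 SE) of 40 members for TAC against sham under SFA (left) and SFA-EAA (right), coloured by role, with filled points for limma adjusted p under 0.05. Pfkp at 1.17 and Pfkfb1 at -2.21 are the filled points, both under SFA.

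Under SFA-EAA no member was called by limma for TAC against sham, beside 0.0122% of all genes. At an unadjusted p under 0.05 there were 2 members, Pfkfb1 and Pfkp, and 1408 of all genes. With GC-corrected values limma called none as well, beside 0.219% of all genes (9 members and 1878 genes at an unadjusted p under 0.05). The median of the members was -0.04, beside 0 over all genes. Of the 40 members, 26 (65.0%) had the same sign under both diets, beside 59.2% of all genes, and 31 (77.5%) had the larger absolute value under SFA, beside 54.7%. The difference of the TAC effect between diets was tested directly and called no member, beside 0% of all genes (1 member and 902 genes at an unadjusted p under 0.05). For Pfkp that difference was -0.63 on the log2 scale (SE 0.21, unadjusted p = 0.0166, limma adjusted p = 0.862), for Slc2a4 0.37 (limma adjusted p = 0.881) and for Ldhd 0.39 (limma adjusted p = 0.909). Averaged over diets, 2 members were called for TAC against sham, beside 2.11% of all genes, and 6 with GC-corrected values, beside 6.09%.

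The diet was compared within each operation. In TAC hearts no member was called by limma between SFA-EAA and SFA, beside 0.0487% of all genes, while 14 members and 2476 genes (15.1%) had an unadjusted p under 0.05. Pfkp differed by -0.65 (limma adjusted p = 0.128), with both TAC SFA-EAA libraries below both TAC SFA libraries. Pfkfb1 differed by 1.27 (limma adjusted p = 0.203). Eno1 had 542.7 and 311.1 in TAC SFA-EAA, against 650.8 and 760.8 in TAC SFA, without overlap (log2 fold change -0.77, limma adjusted p = 0.207; GC-corrected -0.42, limma adjusted p = 0.0896). Ldhb differed by 0.43 (limma adjusted p = 0.216), Ldhd by 0.40 (limma adjusted p = 0.285) and Slc2a4 by 0.35 (limma adjusted p = 0.271). With GC-corrected values 4 members were called, beside 1.7% of all genes. Slc2a4 (0.53, limma adjusted p = 0.0204), Ldhb (0.55, limma adjusted p = 0.0228) and Ldhd (0.54, limma adjusted p = 0.0418) were higher under SFA-EAA, and Pfkp (-0.71, limma adjusted p = 0.0252) was lower. These values share the TAC SFA libraries with the TAC comparison under SFA. Without TAC SFA-EAA replicate 1 the diet comparison in TAC hearts rests on replicate 2 alone. That library has a falling GC trend (rho -0.729), against 0.344 and 0.464 in the TAC SFA libraries, so diet and GC trend cannot be told apart there. As deposited, Pfkl then differed by -1.26, Eno1 by -1.17, Pgd by -0.83 and Ugp2 by 1.03. Their GC contents are 57.1%, 57.4%, 48.5% and 39.1%.

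In sham hearts no member was called by limma between SFA-EAA and SFA, beside 0% of all genes (2 members and 2437 genes at an unadjusted p under 0.05). With GC-corrected values none was called either, beside 0.0304% (4 members and 1725 genes at an unadjusted p under 0.05). As deposited the 2 were Pfkfb2 and Ugp2. Ugp2, which makes UDP-glucose for glycogen, had 2341.3 and 2126.2 in sham SFA-EAA, against 1523.3 and 1383.8 in sham SFA (log2 fold change 0.62, limma adjusted p = 0.324). In TAC hearts it had 1862.5 and 3688.2 under SFA-EAA, against 1913.6 and 1704.7 under SFA. The highest value belongs to TAC SFA-EAA replicate 2, and Ugp2 has the lowest GC content of the members (39.1%). With GC-corrected values its difference in sham hearts was 0.25 (limma adjusted p = 0.577). Without TAC SFA-EAA replicate 1 or 2 Ugp2 was called in sham hearts as deposited (limma adjusted p = 0.0408 and 0.0397), beside 430 and 466 of all genes, against 0 with all libraries. Pfkfb2 differed by 0.53 (limma adjusted p = 0.267). Averaged over operations no member was called by limma, beside 1.21% of all genes (14 members and 3808 genes at an unadjusted p under 0.05). The smallest p-values belonged to Pfkfb2 (0.46, limma adjusted p = 0.0643), Pfkl (-0.68, limma adjusted p = 0.0879) and Gpi1 (-0.41, limma adjusted p = 0.0909). Without TAC SFA-EAA replicate 1 these log2 fold changes were 0.53, -0.92 and -0.52. All SFA-EAA libraries left then have a falling GC trend (rho -0.729 to -0.428), so diet and GC trend cannot be told apart. Gpi1, the isomerase that follows hexokinase, had 2740.6 and 2016.0 in TAC SFA-EAA, against 3015.2 and 3615.8 in TAC SFA, and 2166.7 and 2423.1 in sham SFA-EAA, against 2861.4 and 2888.4 in sham SFA. All 4 SFA-EAA libraries lay below all 4 SFA libraries. With GC-corrected values Slc2a4, Ldhb and Ldhd were called, beside 2.59% of all genes.

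The diet differences of the members followed their GC content. Spearman's rho between log2 fold change and GC content over the 40 members was -0.71 in sham hearts and -0.43 in TAC hearts, beside -0.71 and -0.57 over 10203 genes. For TAC against sham under SFA it was -0.04, beside 0.01. These are descriptions across genes that share libraries. The median diet difference in sham hearts was -0.12 as deposited, with 15 positive and 25 negative members, and 0.06 after GC correction, with 25 positive and 15 negative. Pfkl, the ubiquitous Hk1 and Eno1 have GC contents of 57.1%, 56.4% and 57.4%. As deposited they differed by -0.58, -0.56 and -0.41 in sham hearts (limma adjusted p = 0.344, 0.346 and 0.442), and by -0.16, -0.19 and 0.04 with GC-corrected values, so the direction for Eno1 turned. In sham hearts Eno1 had 370.1 and 495.8 under SFA-EAA, against 577.2 and 564.9 under SFA.

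**Figure D4:**
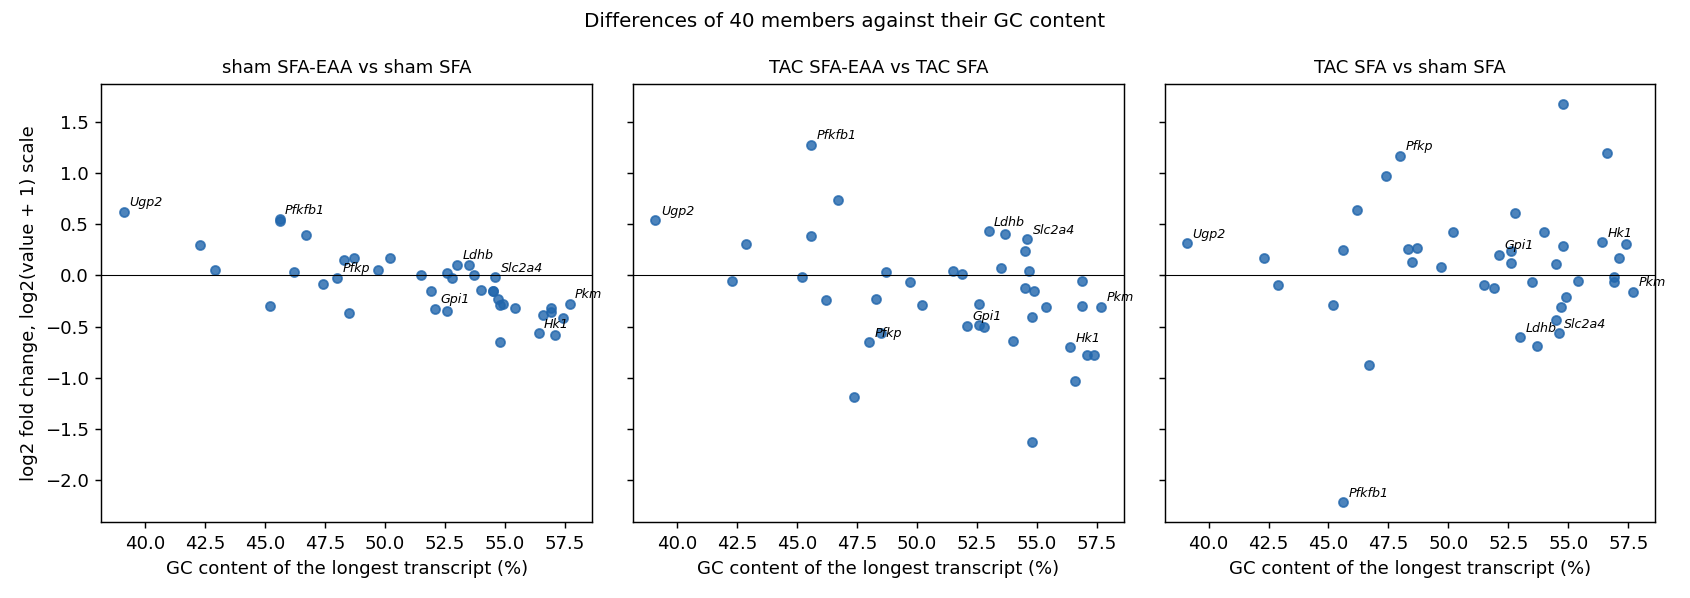
Log2 fold change on the log2(value + 1) scale (vertical axis) of 40 members against the GC content of their longest transcript in percent (horizontal axes). Points descend for SFA-EAA against SFA in sham hearts (rho -0.71) and in TAC hearts (rho -0.43), and not for TAC against sham under SFA (rho -0.04).

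Of 76 other genes of glucose metabolism, 71 were tested. For TAC against sham under SFA, 3 of them fell, beside 0.414% of all genes, and no other was called by limma. At an unadjusted p under 0.05 there were 13, beside 13.4% of all genes. The median over the 71 genes was -0.06 on the log2 scale, beside 0.01 over all genes. Fbp2, the muscle fructose bisphosphatase, had 37.9 and 39.9 in TAC SFA, against 114.4 and 130.4 in sham SFA (log2 fold change -1.63, limma adjusted p = 0.0164). Sord, sorbitol dehydrogenase, had 491.5 and 461.3 in TAC SFA, against 779.6 and 777.9 in sham SFA (log2 fold change -0.71, limma adjusted p = 0.023). Tbc1d4, which holds GLUT4 vesicles inside the cell until insulin acts, had 287.4 and 314.7 in TAC SFA, against 514.0 and 490.9 in sham SFA (log2 fold change -0.74, limma adjusted p = 0.0403). All 3 were lost when any TAC SFA or sham SFA library was left out, with limma adjusted p = 0.103 to 0.224 for Fbp2, 0.0968 to 0.279 for Sord and 0.175 to 0.339 for Tbc1d4. Without either sham SFA-EAA library Fbp2, Sord and Tbc1d4 were also lost (limma adjusted p = 0.0599 to 0.0877).

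Averaged over diets, 4 of the 71 genes fell, beside 0.73% of all genes, and no other was called by limma (16 at an unadjusted p under 0.05, beside 15.3% of all genes), while 1.38% of all genes rose. They were Fbp2, Sord, Tbc1d4 and the phosphorylase kinase subunit gene Phkg1 (log2 fold change -1.45, limma adjusted p = 0.0291). Phkg1 had 23.7 and 27.5 in TAC SFA, against 95.2 and 68.7 in sham SFA, and 23.7 and 48.5 in TAC SFA-EAA, against 65.3 and 106.8 in sham SFA-EAA. Fbp2, Sord, Tbc1d4 and Phkg1 did not pass without any 1 of the sham or TAC SFA libraries (limma adjusted p = 0.0664 to 0.174). No gene of the list was called by limma for TAC against sham under SFA-EAA (8 of 71 at an unadjusted p under 0.05, beside 8.6% of all genes), or for the difference of the TAC effect (7, beside 5.5%). Nor was any called for SFA-EAA against SFA in sham hearts (9, beside 14.8%), in TAC hearts (14, beside 15.1%) or averaged over operations (19, beside 23.2%). With GC-corrected values Fbp2 (1.32, limma adjusted p = 0.00948) and Sord (0.59, limma adjusted p = 0.0128) were higher in TAC SFA-EAA than in TAC SFA.

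**Figure D5:**
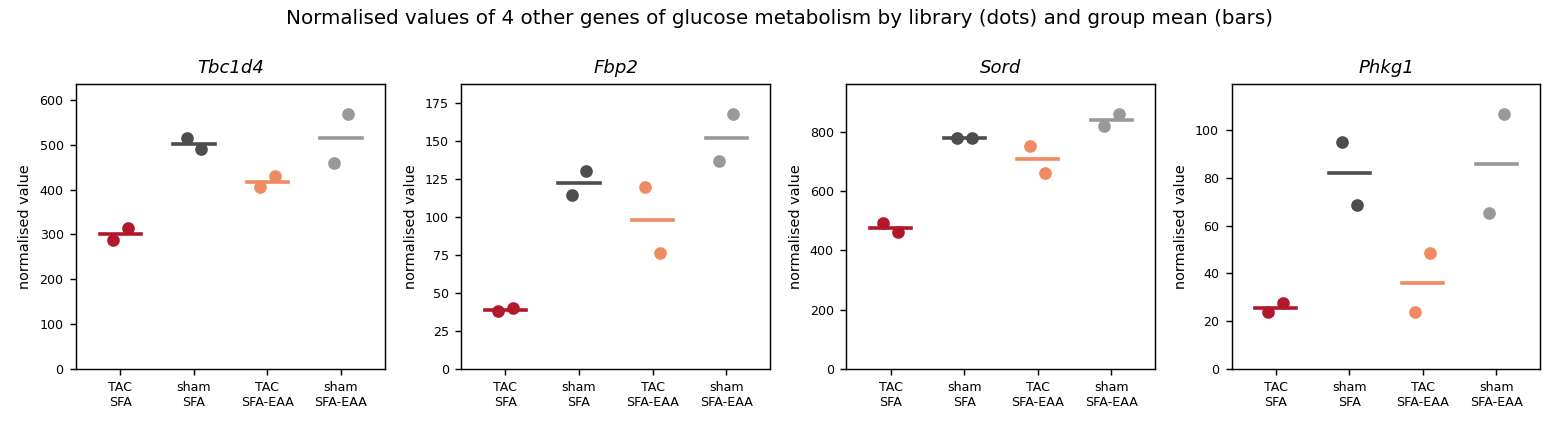
Normalised value (vertical axes, from 0) of Tbc1d4, Fbp2, Sord and Phkg1 in each library (dots) of the 4 groups, with bars at the mean of 2 libraries. Tbc1d4, Fbp2 and Sord are lowest in the 2 TAC SFA libraries, and Phkg1 is lower in every TAC library (23.7 to 48.5) than in every sham library (65.3 to 106.8).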

How the data were processed

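Per the labels' protocols, libraries were made from polyadenylated RNA with a stranded kit. Per the submitters' processing notes the authors used STAR 2.5, GRCm38 and edgeR; no source used here names the counter, its strand setting or the annotation. The deposited table holds a normalised signal per gene and library, not whole counts, so the test planned for normalised values was used and no count test was run. Limma-trend (limma 3.58.1, R 4.3.3) was fitted to log2(value + 1) of the 16432 genes that reached 1 in 2 or more of 8 libraries. All 4 groups, each with its own mean, shared 1 estimate of the spread. P-values were two-sided, adjusted over all genes within each of 7 comparisons, with a threshold of 0.05. Fold changes are on this scale, which understates changes of low genes. The GC correction removed a loess fit (span 0.3) of each library's deviations on transcript GC content, matched for 99.8% of genes. Alternatives were a pseudocount of 0.25, other filters, other scalings, a replicate block, fits to the 2 groups compared and leaving out each library. The script was tested on simulated data.

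The members and lists were chosen with earlier results of these data known. Named with values per library are members called in any comparison, the 3 smallest p-values of each comparison and a panel of 19 members; of the other list, called genes are named, and 2 of its genes are not reported here. Promoter windows are from RefSeq. Figures were made with Python 3.11.15 and matplotlib 3.10.9.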

Additional observations from a re-analysis of the deposited data

How the results depend on the processing

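The 4 groups share replicate numbers, but same-numbered libraries did not deviate together across genes (correlations of -0.283 to 0.035). This cannot exclude a pairing, because each group gives 1 difference between replicates. In TAC SFA-EAA that difference is between libraries of opposite GC trend (rho 0.429 and -0.729). The labels state no block. Fitted as a replicate block, the numbers left 1 member called for TAC against sham under SFA. With the block the counts over all genes were 96 for that comparison, 0 for TAC against sham under SFA-EAA, 0 for diet in TAC hearts, 147 for TAC averaged over diets and 0 for diet averaged over operations.

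Members called for TAC against sham under SFA (2 as reported) numbered 1 without a filter, 7 with the GC correction, 6 with the GC correction and block, and 0 in the fit to the 2 groups compared. Averaged over diets (2), they numbered 4 with the filter at 5, 0 without a filter, 6 with the GC correction and 6 with the block added. For diet in TAC hearts (0), they numbered 4 and 3 with the GC correction alone and with the block. For diet averaged over operations (0), they numbered 1 with the filter at 5 and 3 and 2 with those corrections.

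Over all genes, TAC against sham under SFA (205) gave 322 with the filter at 5, 796 with the GC correction, 668 with the block added and 0 in the 2-group fit. All 205 remained among the 796. Under SFA-EAA (2) the counts were 0 with pseudocount 0.25, 5 with the filter at 5, 0 without a filter, 0 with quantile scaling, 36 with the GC correction, 27 with the block added and 0 in the 2-group fit. Diet in sham hearts (0) gave 5 with the GC correction. Diet in TAC hearts (8) gave 0 with pseudocount 0.25, 81 with the filter at 5, 0 without a filter, 15 with median-of-ratios scaling, 279 with the GC correction, 160 with the block added and 0 in the 2-group fit. The difference of the TAC effect (0) gave 3 with the GC correction and block. TAC averaged over diets (347) gave 56 without a filter, 1000 with the GC correction and 819 with the block added. Diet averaged over operations (199) gave 57 with pseudocount 0.25, 628 with the filter at 5, 0 without a filter, 42 with quantile scaling, 426 with the GC correction and 312 with the block added.

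Leaving out each library in turn gave 0 to 4 members for TAC under SFA, 0 to 0 under SFA-EAA, 0 to 1 for diet in sham hearts, 0 to 8 for diet in TAC hearts, 0 to 0 for the difference of the TAC effect, 0 to 7 for TAC averaged over diets and 0 to 13 for diet averaged over operations. Over all genes the same ranges were 0 to 385, 0 to 0, 0 to 466, 0 to 1395, 0 to 0, 24 to 563 and 0 to 3043.

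Of 74 single gene values recomputed 1232 times, 1228 kept their direction. The 4 that turned were Eno3 for diet in TAC hearts without TAC SFA-EAA replicate 1 (-0.05, in a range of -0.05 to 0.53 over the libraries left out), Eno1 for diet in sham hearts with the GC correction (0.04) and with the block added (0.04), and Slc16a3 for TAC under SFA-EAA without sham SFA-EAA replicate 1 (-0.18, in a range of -0.18 to 1.29). The causes of these differences were not tested. Leaving out a library leaves 1 library in its group, and TAC SFA-EAA then keeps a single GC trend (rho 0.429 or -0.729). The depth in reads is not known from the normalised values, so no limit of detection is given.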

Other observations

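With GC-corrected values 1 of the 71 other genes rose and 6 fell for TAC against sham under SFA, beside 4.84% of all genes in either direction, and 3 rose and 8 fell averaged over diets, beside 6.09%. Those that passed with GC-corrected values only were Mpc2, Phkg1 and Bsg (lower) and Hif1a (higher) under SFA. Averaged over diets they were Slc16a7, Mpc2, Ppp1r3b and Akr1b3 (lower) and Gfpt2, Hif1a and Irs2 (higher). Examples chosen after their values were seen follow. Under SFA the pyruvate carrier subunit gene Mpc2 had 1131.0 and 940.6 in TAC, against 1484.1 and 1557.6 in sham, and fell (-0.55, limma adjusted p = 0.0238). The hypoxia-inducible factor gene Hif1a had 393.7 and 428.8 in TAC SFA, against 279.5 and 310.2 in sham SFA, and rose (0.49, limma adjusted p = 0.0292). Averaged over diets Gfpt2, a first enzyme of the hexosamine pathway, rose (0.79, limma adjusted p = 0.0185), with 78.7 and 95.2 in TAC SFA and 99.5 and 101.6 in TAC SFA-EAA, against 68.9 and 56.7 in sham SFA and 58.8 and 34.7 in sham SFA-EAA. All 4 TAC libraries of Gfpt2 lay above all 4 sham libraries. As deposited none of these passed (limma adjusted p = 0.0685, 0.216 and 0.069).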
